A study of Mus musculus with 6 samples.

Results

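The levels of 10 mouse genes of T cells and cytotoxic lymphocytes were measured in RPE/choroid, the retinal pigment epithelium dissected together with the vascular layer behind it. The genes were Cd3e, Cd3d, Cd3g, Cd4, Cd8a, Cd8b1, Nkg7, Gzma, Gzmb and Prf1. They were chosen by name, and all 10 were found among the 33924 genes of the deposited poly(A) RNA-seq table. The samples came from wild-type C57BL/6J mice, 3 young and 3 aged, with no treatment and no transgene, and both eyes of a mouse were pooled in each sample. Per the labels, the young mice were 1 to 2 months old, while the titles put the aged mice at 20 to 24 months and a separate age entry puts them at 22 to 24. The study's methods give the young mice as slightly older than the labels do. The labels call the mice male, whereas the study's methods name both sexes.

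The values were the authors' mean normalized counts, 1 per gene over all 6 libraries. Both ages enter each mean, so it carries no SD and does not tell young from aged mice. Accordingly, no comparison between ages was made, and the counts behind a mean could come from 1 age or from both. The depth of each library is unknown, since the table gives no library totals. The means of all genes sum to 40816668, and the 10 genes together made up 785 of these, or 0.00192%.

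T cells recognise antigen through the T cell receptor, whose own chains have almost no cytoplasmic tail and pass the signal on through the CD3 chains and the zeta chain. The coreceptors CD4 and CD8 bind MHC molecules beside the receptor and mark helper and cytotoxic T cells. Cytotoxic T cells and natural killer cells kill by releasing granules, in which perforin opens the membrane of the target cell and granzymes, a group of serine proteases, enter through it. The healthy eye holds few of these cells behind its blood barriers, while the choroid is supplied with blood and has resident leukocytes.

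In the annotation of GRCm38 (GENCODE vM21), the 3 CD3 genes lie in 1 stretch of chromosome 9. Cd3g (ENSMUSG00000002033) is on the minus strand at chr9:44969572-44980431, and Cd3d (ENSMUSG00000032094) is on the plus strand at chr9:44981786-44987339. This pair is divergent, with 1354 bases between the genes. Cd3e (ENSMUSG00000032093) follows on the minus strand at chr9:44998740-45009627. Cd8b1 (ENSMUSG00000053044) at chr6:71322788-71337494 and Cd8a (ENSMUSG00000053977) at chr6:71373427-71379173 share the plus strand of chromosome 6, and Cd4 (ENSMUSG00000023274) lies on the minus strand of that chromosome at chr6:124864692-124888221. The granule genes lie on separate chromosomes. They are Nkg7 (ENSMUSG00000004612) at chr7:43437073-43438249 on the plus strand, Prf1 (ENSMUSG00000037202) at chr10:61297833-61304680 on the plus strand, Gzma (ENSMUSG00000023132) at chr13:113093825-113100981 on the minus strand and Gzmb (ENSMUSG00000015437) at chr14:56258838-56262260 on the minus strand.

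Promoter sequences of 8 of the 10 genes were read from RefSeq (GRCm38.p6), all but Cd4 and Cd8b1. Shown here are the 250 bases before the start of the CD3 genes, which stand close together and yet lay near the top and at the bottom of the measured levels, and of the granzymes, the protease pair among the 10 genes. The windows are chr9:44980432-44980681 on the minus strand for Cd3g, chr9:44981536-44981785 on the plus strand for Cd3d, chr9:45009612-45009861 on the minus strand for Cd3e, chr13:113100982-113101231 on the minus strand for Gzma and chr14:56262335-56262584 on the minus strand for Gzmb. Each is written 5′ to 3′, with capitals marking the RUNX core TGTGGT and the ETS core GGAAGT, or their reverse complements where the match is on the other strand. These are the short letters read by 2 transcription factor families of lymphocytes.
Cd3g: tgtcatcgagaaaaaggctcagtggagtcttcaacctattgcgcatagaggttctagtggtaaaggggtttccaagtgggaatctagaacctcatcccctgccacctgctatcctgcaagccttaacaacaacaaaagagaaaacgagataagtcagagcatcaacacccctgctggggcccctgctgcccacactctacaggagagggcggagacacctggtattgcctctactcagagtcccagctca
Cd3d: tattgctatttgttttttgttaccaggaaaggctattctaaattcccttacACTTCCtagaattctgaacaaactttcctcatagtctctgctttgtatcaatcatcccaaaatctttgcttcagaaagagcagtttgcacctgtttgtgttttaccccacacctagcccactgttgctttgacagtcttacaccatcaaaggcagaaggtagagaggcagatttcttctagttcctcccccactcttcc
Cd3e: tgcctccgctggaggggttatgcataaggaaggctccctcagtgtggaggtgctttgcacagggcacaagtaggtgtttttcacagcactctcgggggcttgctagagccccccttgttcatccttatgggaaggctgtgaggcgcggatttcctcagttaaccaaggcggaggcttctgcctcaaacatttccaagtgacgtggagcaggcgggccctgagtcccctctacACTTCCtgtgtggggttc
Gzma: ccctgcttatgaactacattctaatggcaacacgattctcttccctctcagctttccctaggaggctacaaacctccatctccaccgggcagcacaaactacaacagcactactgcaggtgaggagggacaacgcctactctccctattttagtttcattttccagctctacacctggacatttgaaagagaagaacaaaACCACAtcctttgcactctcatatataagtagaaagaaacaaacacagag
Gzmb: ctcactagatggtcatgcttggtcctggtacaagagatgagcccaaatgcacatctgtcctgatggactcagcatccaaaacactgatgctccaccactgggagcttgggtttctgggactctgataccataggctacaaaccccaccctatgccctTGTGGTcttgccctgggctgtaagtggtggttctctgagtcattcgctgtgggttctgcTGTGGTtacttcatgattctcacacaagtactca

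The ETS core stood in 3 of the 8 promoters, against 19.7% of all 32851 promoters of this length, and the RUNX core in 4 of 8, against 14.0%. The RUNX core was in all 4 granule genes, beginning 50 bases before the start in Gzma, 93 and 34 bases before it in Gzmb, 83 in Nkg7 and 130 in Prf1. The ETS core began 199 bases before the start in Cd3d and 18 bases before it in Cd3e, and was present at 2 places in Prf1. Cd3g and Cd8a had neither exact string, and shorter or variant forms were not searched. Both strands were searched, and no matches overlapped. Distances are from the RefSeq start, which differs from the GENCODE gene position in Cd3e, Gzmb, Nkg7 and Prf1. The windows of Cd3e, Nkg7 and Prf1 therefore reach into the GENCODE gene. The exact TATA box string TATAAA was in none of the 8 windows and in 12.4% of all promoters. Variant forms of the TATA box were not searched, so a promoter without this string may still hold one. These are matches of letters, and binding was not measured.

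The CD3 genes differed widely among themselves. Cd3g, the gamma chain, had a mean normalized count of 145, Cd3d, the delta chain, of 45.3, and Cd3e, the epsilon chain, of 2.40. Cd3e was the lowest of the 10 genes and Cd3g the second highest. To compare levels between genes, each mean was divided by the length of the gene's longest annotated transcript in kilobases. The study's methods name TPM, a unit already scaled by transcript length, as a step before the normalized counts, and for values scaled in that way the ratios of mean counts are the ones to read. Per kilobase, Cd3g stood at 56.98, Cd3d at 28.0 and Cd3e at 0.943, so that Cd3g was 60.4 times Cd3e and 2.04 times Cd3d on this scale. Cd3g over Cd3d was 3.19 in mean count and 5.05 per longest protein-coding transcript. The longest Cd3g and Cd3e transcripts are not annotated as protein coding. Divided by the longest protein-coding transcript instead, Cd3g stood at 141 per kilobase, the highest of the 10 genes, and Cd3e at 1.64, still the lowest. In the protein complex each gamma or delta chain is paired with an epsilon chain, and the order of the measured RNA was epsilon far below both.

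Because Cd3e was so low, its mean fixed the counts behind it. Each library adds whole counts to a mean, each worth 0.157 to 0.174 depending on the library, and 1 set of 6 whole counts gave the value of Cd3e. In ascending order these were 0, 0, 0, 2, 4 and 8 counts. They were 14 counts in all, with 3 libraries at 0, which allows up to 3 counts in each of those. This limit covers counting error only and takes each count as independent. Even counts were in excess in these data, so the assumption may not hold and the limit may be higher. Which library belongs to which age was not assigned. The library with 8 counts carried the most weight, and without it the mean fell to 1.22, while leaving out any other library gave 2.07 to 2.88. Gm48719, an antisense gene, and Gm48720, on the same strand as Cd3e, overlap Cd3e in the annotation. No 50-base word of the Cd3e transcripts, read on their own strand, occurs in another gene. The sources used here do not state whether the counting used strand, so reads of Gm48719 may not be told apart from those of Cd3e. For Gzmb, 14 sets of whole counts gave the observed mean and for Prf1 23 sets did, so single libraries are not given for these or for any higher gene.

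**Figure D1:**
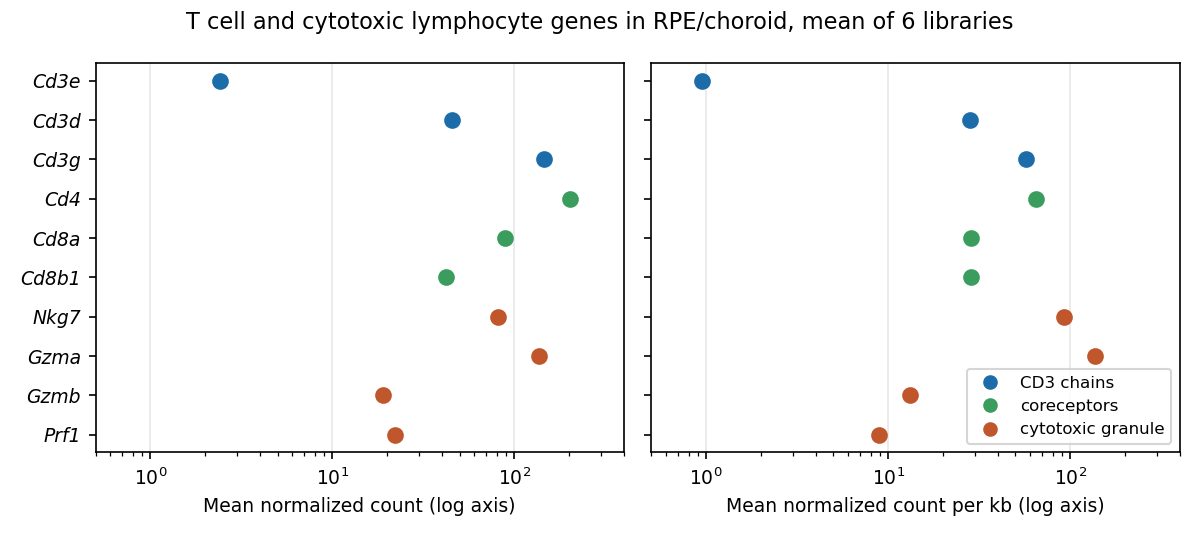
Mean normalized count over the 6 libraries (left) and the same divided by the longest transcript in kilobases (right) of the 10 genes, both on log axes, with 1 point per gene and colours for CD3 chains, coreceptors and granule genes. The points carry no error bar since 1 mean per gene was given. Cd3e stands apart at 2.40 and 0.943 per kilobase, and Gzma leads the right panel at 137 per kilobase.

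Among the coreceptors, Cd4 had a mean normalized count of 202, the highest of the 10 genes. Cd8a, the alpha chain of CD8, had 89.4 and Cd8b1, the beta chain, 42.1. Per kilobase of longest transcript, Cd8a stood at 28.6 and Cd8b1 at 28.4, a ratio of 1.01, beside Cd3d at 28.0. Per coding length the ratio was 1.83, so the place of Cd8a beside Cd8b1 depends on the length taken. Cd4 stood at 64.9 per kilobase, or 2.27 times Cd8a, against 1.22 per coding length. Cd8b1 is the member whose reads could be shared most with other genes, as 94.0% of the 50-base words of its transcript occur in no other gene, against 99.94% or more in the other 9.

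CD4 and CD8A are not restricted to T cells. Macrophages and some dendritic cells can express Cd4, and a class of dendritic cells expresses Cd8a as a homodimer without Cd8b1. All 9 macrophage markers were above 0, with a median mean normalized count of 3877 and a range from 208 (Cd163, a scavenger receptor) to 121895 (Lyz2, a lysozyme). Per kilobase their median was 1217, with Cd163 at 46.7, below Cd4, and the other 8 above all 10 genes. All 5 dendritic cell markers were above 0, from 60.9 to 624 for Zbtb46, with none of the others above 124. Among them were 61.7 for Xcr1 and 124 for Clec9a, markers of the dendritic class that can carry CD8A. The part of these cells in the Cd4 and Cd8a levels was not tested. Without Cd4, the summed mean of the other 9 genes was 583.1.

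The granule genes covered a range of several fold. Gzma, which encodes granzyme A, a protease that cuts after basic residues, had a mean normalized count of 136. Nkg7, a membrane protein of cytotoxic granules, had 81.8. Prf1, which encodes perforin, had 22.0 and Gzmb, which encodes granzyme B, the protease that activates caspases, had 19.0. Per kilobase of longest transcript, Gzma stood at 137 and Nkg7 at 92.9, the first and second of the 10 genes on this scale, while Gzmb stood at 13.2 and Prf1 at 8.90. Their place against Cd3g turned on the other scales, since Cd3g over Gzma was 0.416 here but 1.06 in mean count, 1.51 per coding length and 1.03 per protein-coding transcript, and Nkg7 over Cd3g was 1.63 here but 0.566, 0.624 and 0.657 in that order. Per kilobase of longest transcript Gzma was 10.4 times Gzmb, against 6.83 per coding length, and 15.4 times Prf1, against 6.20 in mean count, and Nkg7 was 0.678 of Gzma. Gzmb and Prf1 lay close to each other, and their order turned with the scale, from 1.49 per kilobase to 0.862 in mean count.

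With the granule genes being shared by cytotoxic T cells and natural killer cells, markers of the latter were read beside them. All 6 natural killer cell markers were above 0, with a median mean normalized count of 39.7. Ncr1, an activating receptor, was lowest at 9.94, Klrb1c was at 23.6, Eomes, a transcription factor, at 55.7 and Klrd1, a receptor chain, at 68.7. Gzma and Prf1 belong to this marker list as well as to the 10 genes. All 6 T cell markers were above 0 at a median of 49.5, which includes the CD3 genes. Of the others, Trac, the constant part of the alpha receptor chain, was at 14.1, Trbc2, that of the beta chain, at 114 and Cd247, the zeta chain, at 53.7. The value of Trbc2 is uncertain, since it shares reads with its near-identical copy. How the granule genes divide between T cells and natural killer cells was not tested, and in a bulk sample fewer cells of a type and less RNA per cell cannot be told apart.

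In mean count, all 10 genes lay in the lower part of the genes with a mean above 0. Of the 25517 genes with a mean above 0, the median gene had a mean normalized count of 211, and 0 of the 10 genes exceeded it. The median of the 10 was 63.6, and their median percentile was 39.97, running from 17.91 for Cd3e to 49.61 for Cd4. Of the 10, 9 had a mean of at least 10, as had 18479 genes of the table. Per kilobase, over the 24089 genes with an annotated length, the median gene stood at 90.8 and the median of the 10 genes at 28.5. By this measure Gzma, at percentile 55.7, and Nkg7, at 50.3, passed the median gene, and the other 8 did not.

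**Figure D2:**
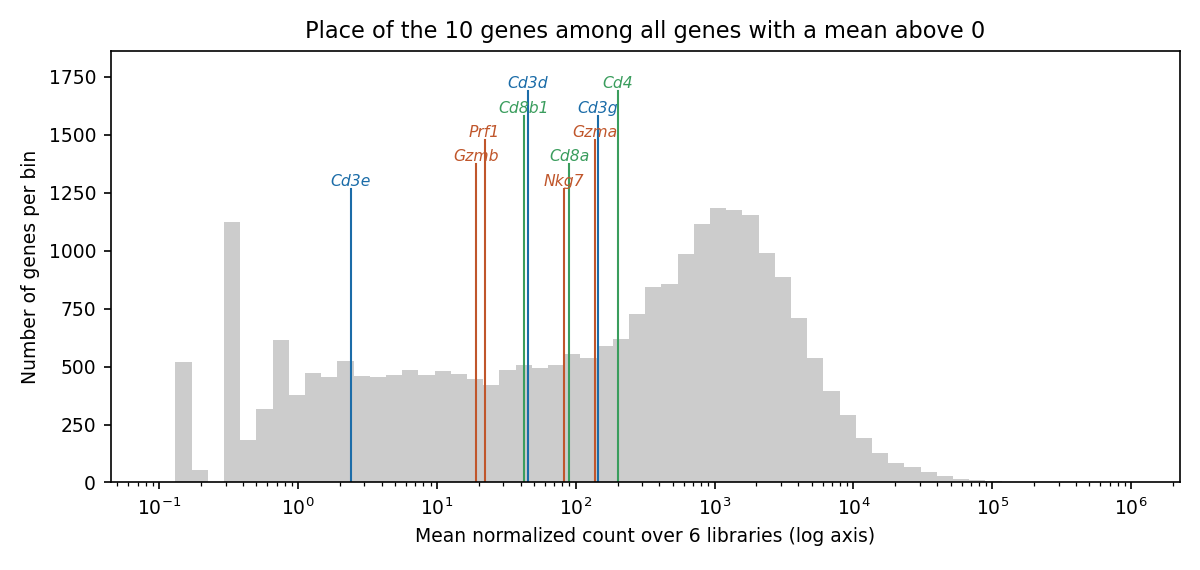
Number of genes by mean normalized count over the 6 libraries (log axis, grey bars), for the 25517 genes with a mean above 0, with a coloured line at each of the 10 genes. All 10 lines stand left of the median gene at 211, and Cd3e stands alone at 2.40. The line heights only make room for the names.

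The genes around these in the same pathways were read from 2 lists. Of 45 T cell receptor and signalling genes, 44 were matched to the table by name, with a median mean normalized count of 54.0, and 37 of the 44 had a mean of at least 10. Trdc was not matched. Among the highest were S1pr1 at 1804, a receptor for lymphocyte exit that endothelium also carries, Fyn, a kinase, at 1122, Thy1 at 1090, which neurons also carry, and Il7r, the interleukin-7 receptor, at 480. Per kilobase, Thy1 stood at 628, S1pr1 at 592, Fyn at 315 and Il7r at 136, the last level with Gzma, the highest of the 10 genes on that scale. Several are used by cells other than lymphocytes, and their source in this tissue was not tested.

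Of 31 cytotoxic and natural killer cell genes, all 31 were matched, with a median mean normalized count of 62.8, and 24 had a mean of at least 10. The highest were Lamp1 at 30513, a lysosomal membrane protein of most cells, Ctsc at 7513, the protease that activates granzymes and acts in myeloid cells too, Tyrobp at 5611, an adaptor of natural killer and myeloid receptors, Srgn at 2576, a granule proteoglycan, and Serpinb9 at 2324, an inhibitor of granzyme B. Per kilobase, the lowest of these, Serpinb9, was 4.89 times Gzma. Ctsc, the activator of granzymes, and Serpinb9, the inhibitor of granzyme B, were 176.5 and 50.6 times Gzmb per kilobase. In mean count they stood at 7513 and 2324, against 19.0 for Gzmb. Which cells their RNA came from was not tested, so these ratios are of the whole tissue and not of cytotoxic cells. The medians of both lists per kilobase (42 and 31 genes with a length) were 25.6 and 31.6, on both sides of the 28.5 of the 10 genes, and 0 genes of either list were at 0.

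**Figure D3:**
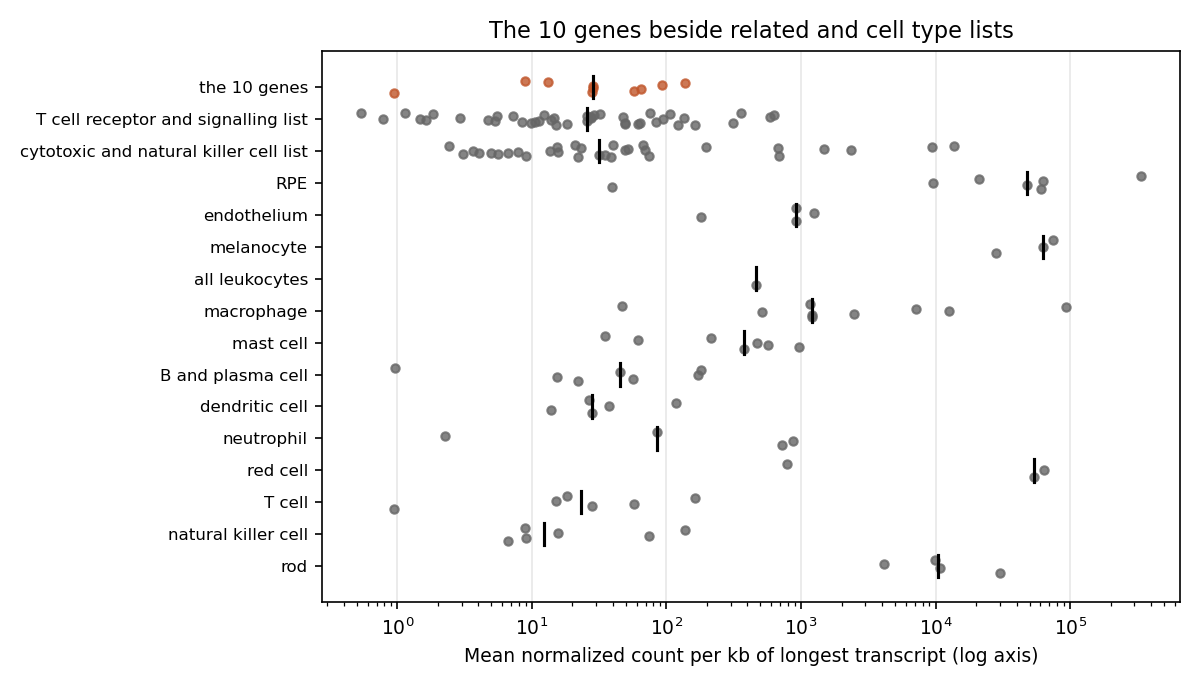
Mean normalized count per kilobase of longest transcript (log axis) of the 10 genes, the related lists and the cell type marker lists, with 1 point per gene and a black bar at each list's median. The medians of the 10 genes and both related lists lie at 25.6 to 31.6 per kilobase, below those of macrophages at 1217 and of RPE at 47916. Mpo, a neutrophil marker listed at 0, has no point on the log axis but counts in its median, and genes of 2 lists recur among the 10.

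The tissue label was read against its markers. All 7 RPE markers were above 0, from 81.8 for Best1 to 397586 for Ttr, and the 4 rod markers stood at 16944 to 139449, so RNA of the neural retina was in the samples too. Ptprc, which marks all leukocytes, had a mean normalized count of 2659, against 145 for Cd3g. Per kilobase of longest transcript it was 8.13 times Cd3g. That ratio depends on the length taken, as Cd3g stood at 56.98 per longest transcript but at 141 per longest protein-coding transcript. Per kilobase, mast cell markers had a median of 374. B and plasma cell markers, the other lymphocyte line, had a median of 45.1, against 28.5 for the 10 genes. In mean count these medians were 543, 64.3 and 63.6. The gap between the B and plasma cell markers and the 10 genes therefore depends on the scale. Melanocyte markers (Mlana, Pmel and Dct) had a median of 62795 and endothelium markers one of 913 per kilobase. RPE is itself pigmented, and how much of the melanocyte marker RNA came from RPE was not tested. Neutrophil markers had a median of 85.2 per kilobase but 50.5 in mean count, below the 10 genes on that scale, with Mpo listed at 0. Red cell markers were matched for 3 of 5 genes and reached 37845. How much of the T cell and granule gene counts came with blood was not tested.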

How the data were processed

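RNA-seq was made from RPE/choroid of 3 young and 3 aged mice, with 1 table for the series. Per the labels and the study's methods, the authors removed ribosomal RNA, selected poly(A) RNA, used a stranded kit, trimmed reads with BBDuk, mapped them with STAR to Ensembl GRCm38 transcripts, quantified TPM with Sailfish, scaled by total count and ran DESeq2. The deposited signal used here is the mean normalized count per gene over the 6 libraries, the authors' mean. The other columns hold the authors' comparison of the ages (fold change, its standard error, statistic, p-value and adjusted p-value) and were not used. No test was run and no p-value is given, since the used column holds no value per sample.

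From the means were computed percentiles among genes above 0, levels per kilobase of the longest transcript (GENCODE vM21, a later annotation than the authors'; 94.4% of genes matched), list medians and a minimum mean of 10. Coding lengths were taken from the same annotation, in place of the planned protein lengths. Older names in the table were matched through RefSeq synonyms. The mean is a sum of whole counts times a weight per library, with size factors of 0.959 to 1.06. The weights were read from the lowest genes, and sets of whole counts matching a mean within 1.2e-09 were listed. All 4947 genes with a mean up to 3 had exactly 1 set. These are the rounded counts that entered DESeq2, and 68.6% of their 11062 nonzero counts were even, so a count may not equal 1 read pair. In each of 4 equal classes of these genes by transcript length, counts of 2 outnumbered counts of 1, from 976 against 615 in the shortest to 1227 against 344 in the longest. Whether a length scaling preceded the counts is not settled by the sources used here. The step was tested on simulated data for genes with a mean up to 3 only. Python 3.11.15, numpy 2.4.6, pandas 2.3.3 and matplotlib 3.10.9 were used.

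All 10 genes are described. Genes of the 2 related lists are named if among the 5 highest, not matched or at 0, and other genes as cell type markers; 1 gene that this rule names is not reported here. The low genes of the last part were named after their values were seen. The genes and lists were chosen with earlier results of these data known.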

Additional observations from a re-analysis of the deposited data

How the results depend on the processing

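The median percentile of the 10 genes was 39.97 among genes with a mean above 0, 54.84 among all listed genes, 31.85 among genes with a mean of at least 1 and 17.1 among those with at least 10, so it depends on the genes it is taken over by construction. With a minimum mean of 50, 5 of the 10 genes remained instead of 9. Of 12 ratios between the genes, 3 changed direction per coding length, 3 with no division by length and 3 per longest protein-coding transcript, the last chosen after seeing the data. Nkg7 over Cd3g was 1.63 per longest transcript but 0.624 per coding length, 0.566 undivided and 0.657 per protein-coding transcript. Cd3g over Gzma was 0.416 but 1.51, 1.06 and 1.03 in that order. Cd3g over Cd4 was 0.878 but 1.80 per coding length and 2.18 per protein-coding transcript. Gzmb over Prf1 was 1.49 but 0.862 undivided. The place of Cd3g among the 10 genes therefore rests on the length chosen, whereas Cd3e was last on every scale. Leaving out 1 library at a time gave a mean of 1.22 to 2.88 for Cd3e, and its whole counts had 1 solution with a tolerance 10 times wider or narrower. No library could be left out for the other 9 genes. No paired analysis was possible because each gene has 1 mean and no value per sample. For the other 9 genes the spread between libraries is unknown, so no error is put on their levels, and the total depth of each library is not given.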

Other observations

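Whole counts in the 6 libraries could also be read for genes of the related lists with a mean under 10, which were named after their values were seen. For means above 3 the reading was not tested on simulated data, and other tolerances were tried for Cd3e only. The libraries were not assigned to an age, and the counts are given in ascending order. Ifng, the gene of interferon gamma made by activated T cells and natural killer cells, had 0, 0, 0, 8, 8 and 10 counts. Foxp3, the transcription factor of regulatory T cells, had 0, 1, 2, 4, 5 and 6 counts, and Ctla4, an inhibitory receptor, had 0, 2, 2, 4, 5 and 6. Cd40lg, a ligand of helper T cells, had 2 counts in each of 2 libraries and 0 in the other 4. Trgc2, a constant part of the gamma receptor chain, matched through the older name Gm16603, had 0, 0, 2, 11, 14 and 15 counts. Whether it shares reads with other gamma constant genes was not tested. Ncr1 had 4, 5, 6, 14, 14 and 16 counts, and Klrc2, another receptor of natural killer cells, had 4, 4, 8, 8, 12 and 22. Of all 14 such genes, 5 were above 0 in all 6 libraries, 5 were at 0 in 1 library, 1 in 2, 2 in 3 and 1 in 4. Whether the same libraries were high for these genes is not given.

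Among the 4947 genes with a mean up to 3, a count of 2 occurred 5049 times and a count of 1 occurred 2305 times. All 3 nonzero counts of Cd3e were even. The cause was not tested.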
